A study of Mus musculus with 2 samples.

Results

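NRF2, antioxidant and heat shock genes were examined as 39 genes listed by name, in primary mouse hepatocytes given pregnenolone 16α-carbonitrile (PCN). The genes encode the transcription factor NRF2 and its oxidant-sensing partner KEAP1, enzymes of glutathione and peroxide handling, metallothioneins, and heat shock chaperones. Of the 39 genes, 31 had a probe set with that gene symbol, out of 15644 named genes on the array. All 31 were measured, meaning that at least 1 array reached an intensity of 32, a floor of 5 on the log2 scale. The other 8 genes, Prdx5, Prdx6, Hsf1, Hspa8, Hsp90aa1, Hsp90ab1, Hspb1 and Hspd1, were not analysed here.

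A male C57BL/6 mouse, 9 weeks old, gave the hepatocytes, which stayed in culture for 24 h before treatment. The PCN cells then received 10 µmol/l of this steroid, a ligand of the rodent pregnane X receptor (PXR), for 12 h, and the DMSO cells received the solvent dimethyl sulfoxide for the same time. RNA of 3 samples was pooled in each group and read on 1 array per group, so no value has a replicate and no difference could be tested. Cultured hepatocytes of a single animal limit what the groups stand for, and the spread between cultures is unknown.

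NRF2 is a transcription factor that KEAP1 holds at a low level until oxidants or reactive chemicals modify KEAP1, after which NRF2 drives genes that make glutathione and detoxify reactive molecules. Heat shock factor 1 drives chaperone genes when proteins misfold, and metals drive the metallothionein genes through the factor MTF1. In liver these systems meet the by-products of drug metabolism, which PXR controls.

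The whole group of genes differed little between PCN and DMSO. The values are intensities summarised per probe set by GCRMA, a background correction and normalization method, and differences are PCN minus DMSO on the log2 scale. Of the 31 genes, 17 were higher with PCN and 14 lower, and the median difference was 0.026, against a median of 0.032 over all 6449 measured genes, 57.6% of which were higher by any amount. These small differences depended on the scaling: after centring on the median of all measured genes, or removal of a loess trend on level, 13 genes were higher and 18 lower, and after quantile normalization 14 were higher and 17 lower. The quartiles of the 31 differences were -0.063 and 0.10, against -0.09 and 0.14 over all measured genes. Their SD was 0.14, against 0.23 over all measured genes and 0.10 over 38 control probe sets whose RNA is added from outside. Differences of these control probe sets ran from -0.33 to 0.16, with a mean of -0.026. RNA added from outside holds no spread from culture, RNA extraction or pooling, so their SD does not measure that spread.

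Only 3 of the 31 genes were at least 1.2-fold apart, which is 9.68%, while 18.0% of all measured genes were that far apart. Cbr3 and Prdx2 were the lower ones, against a background of 8.95% of measured genes at least 1.2-fold lower, and Hspa1b was the higher one, against 9.06%. Hspa1b fell short of 1.2-fold after quantile normalization, median centring or loess. None of the 31 was 1.5-fold apart, as 1.94% of measured genes were. At 1.1-fold, 7 were higher and 4 lower, against 25.6% and 18.8% of measured genes. Among measured genes with a mean log2 level of at least 8, 11.9% were 1.2-fold apart, and of the 26 listed genes at that level 1 was, Prdx2.

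**Figure D1:**
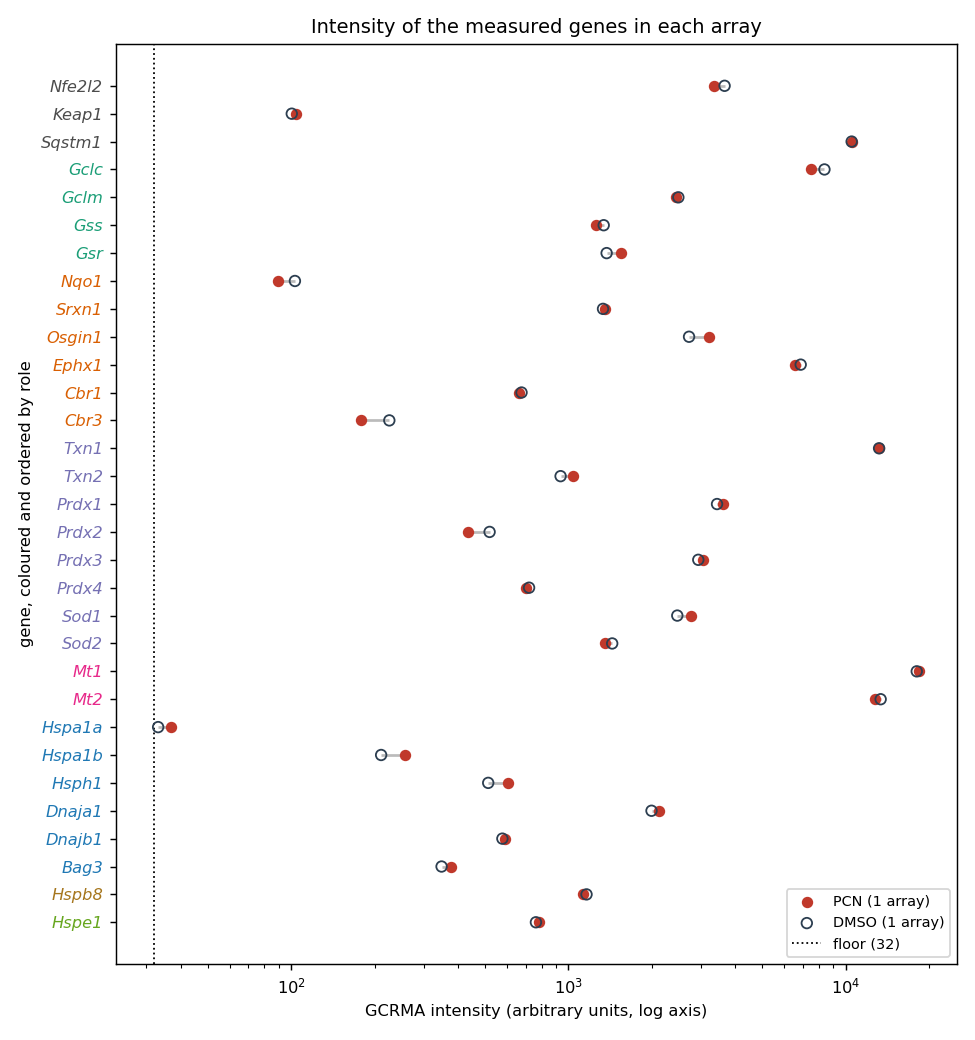
GCRMA intensity (log axis) of the 31 measured genes in the PCN array (filled) and the DMSO array (open), ordered and coloured by role; the dotted line is the floor of 32. The PCN and DMSO points lie close together for every gene, and Hspa1a lies nearest the floor, at 36.8 with PCN and 33.1 with DMSO.

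Hepatocyte markers were present. Of 10 hepatocyte markers 9 were measured, with Alb, the albumin gene, at 21383 with PCN and 21685 with DMSO. The remaining marker, Tat, was under the floor in both arrays. With PCN, 7 of the 9 had less signal than with DMSO, while Serpina1a and Fgb had more. That is 22.2% on the higher side, where 57.6% of all measured genes lay. Hnf4a and Ahsg were furthest apart, at -0.21 and -0.15, and 0 of the 9 reached 1.2-fold. Of the markers of other liver cells, 2 of 11 were measured for stellate cells and fibroblasts, 2 of 10 for Kupffer cells and leukocytes, 3 of 9 for endothelium and 3 of 6 for bile duct. Intensities were also summed over all markers with a probe set, including those under the floor in both arrays. These sums were 107589 with PCN and 109639 with DMSO for hepatocytes. They were 409.6 with PCN and 457 with DMSO for stellate cells, and 3509.8 and 3382 for Kupffer cells. They were 191 and 172 for endothelium, and 746 and 842 for bile duct. Except for stellate cells, the measured markers of a list did not share a direction. Of the Kupffer cell and leukocyte markers, Cd68 and Cd14 had 1626 and 1802 with PCN, against 1690.2 and 1619 with DMSO. These 2 genes made up most of the sum of that list, while Clec4f, Csf1r, Marco and Vsig4 were under the floor. Of the bile duct markers Krt19 was 1.32-fold higher, while Sox9 and Cd24a were 1.34-fold and 1.29-fold lower. The endothelial markers Lyve1 and Eng were higher and Stab2 was lower, all near the floor, and the stellate cell markers Acta2 and Dcn were both lower. Dcn, at 313 with PCN and 351 with DMSO, made up most of the stellate cell sum. The other markers with a probe set, Ptprc, Adgre1, Cdh5, Col1a1 and Epcam among them, were under the floor in both arrays. No marker was listed at 0, and the part of these cells in the differences below was not tested. In such bulk RNA, fewer cells of a type and less RNA per cell cannot be told apart.

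The regulators of the pathway showed small differences. Nfe2l2, the gene of NRF2 itself, had an intensity of 3359 with PCN and 3656 with DMSO, a difference of -0.12. Keap1, whose protein marks NRF2 for degradation, had 103.7 with PCN and 100.5 with DMSO. Sqstm1 encodes the autophagy receptor p62, which binds KEAP1 and is itself an NRF2 target, and had 10531.5 with PCN and 10501 with DMSO. The differences of Keap1 and Sqstm1, 0.046 and 0.0042, were smaller than the SD of the control probe sets, and that of Sqstm1 turned negative under each of the 3 scalings.

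Genes of glutathione synthesis were slightly lower with PCN, and the gene that recycles glutathione was slightly higher. Gclc encodes the catalytic subunit of glutamate-cysteine ligase, the rate-limiting step of synthesis, and had 7509.7 with PCN and 8378 with DMSO, 1.12-fold lower. Gclm, its modifier subunit, had 2434 with PCN and 2489.98 with DMSO, and Gss, which adds glycine in the second step, had 1253 with PCN and 1339.6 with DMSO. The differences of these subunits and of Gss were -0.16, -0.033 and -0.10, all in the same direction. Gsr, glutathione reductase, which returns oxidised glutathione to its reduced form, had 1544 with PCN and 1373 with DMSO, 1.12-fold higher. These 4 genes had a median of -0.065, and the directions were the same under every alternative floor and scaling.

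A group of 6 NRF2 targets, mostly enzymes that reduce or hydrolyse reactive compounds, held the largest difference among the 31 genes. Cbr3, carbonyl reductase 3, had 178 with PCN and 226 with DMSO, 1.27-fold lower, a difference of -0.34 that ranked 643 by size among the 6449 measured genes. Its relative Cbr1, carbonyl reductase 1, had 662 with PCN and 677 with DMSO, a difference of -0.033. Nqo1, the quinone reductase often used as the marker of NRF2 activity, had 89.6 with PCN and 103 with DMSO, 1.15-fold lower, at a low intensity. Osgin1, an oxidative stress induced growth inhibitor, stood on the other side, with 3219.6 with PCN and 2721 with DMSO, 1.18-fold higher. Srxn1, sulfiredoxin, which repairs over-oxidised peroxiredoxins, had 1356 with PCN and 1332 with DMSO. Ephx1, microsomal epoxide hydrolase, had 6583 with PCN and 6878 with DMSO. The median of these 6 genes was -0.048, with 2 higher and 4 lower, and Srxn1 at 0.026 turned negative under each of the 3 scalings, so that then only Osgin1 of the 6 was higher.

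The promoters of Gclm and Cbr3 are shown because Gclm is a well-known NRF2 target and Cbr3 had the largest difference. Both are windows from RefSeq (GRCm38.p6) of 250 bases before to 50 bases after the transcript start, 5′ to 3′. For Gclm (chr3:122245307-122245606, plus strand), capitals mark the only match to the core of the antioxidant response element bound by NRF2, searched as TGACNNNGC on both strands. For Cbr3 (chr16:93682969-93683268, plus strand), where this core had no match, capitals mark the 2 matches to a pair of heat shock element units, GAANNTTC or TTCNNGAA, searched on both strands.
Gclm: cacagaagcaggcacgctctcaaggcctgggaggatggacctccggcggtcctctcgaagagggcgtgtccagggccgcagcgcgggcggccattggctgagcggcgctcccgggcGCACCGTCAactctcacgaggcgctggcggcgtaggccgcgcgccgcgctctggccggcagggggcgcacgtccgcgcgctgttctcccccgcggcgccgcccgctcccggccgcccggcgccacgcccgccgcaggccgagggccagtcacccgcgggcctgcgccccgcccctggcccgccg
Cbr3: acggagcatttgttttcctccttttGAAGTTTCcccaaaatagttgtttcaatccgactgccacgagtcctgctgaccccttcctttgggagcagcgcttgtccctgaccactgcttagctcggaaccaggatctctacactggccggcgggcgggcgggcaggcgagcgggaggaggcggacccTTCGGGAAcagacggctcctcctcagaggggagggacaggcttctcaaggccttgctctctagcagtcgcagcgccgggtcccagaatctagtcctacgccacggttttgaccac

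Of the 31 measured genes, 29 had a RefSeq promoter window, and 8 of these held the antioxidant response element core, against 12.5% of the windows of 27025 genes. The 8 were Nfe2l2, Gclm, Srxn1, Prdx1, Sod1, Mt2, Hsph1 and Dnajb1. Their differences ran from -0.12 for Nfe2l2 to 0.24 for Hsph1, with no common direction. A match of letters is a description of the sequence, and binding was not measured here. Sites further from the start were not searched, so a window without a match does not mean a gene without the element.

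The peroxide and superoxide genes were evenly divided, with 4 higher and 4 lower and a median of 0.029, which turned slightly negative after quantile normalization and after median centring. Txn1, the cytosolic thioredoxin that reduces peroxiredoxins, had 13164 with PCN and 13188 with DMSO, a difference of -0.0026 and the smallest of all 31. Txn2, its mitochondrial counterpart, had 1042 with PCN and 937 with DMSO, a difference of 0.15. Of the peroxiredoxins, enzymes that break down hydrogen peroxide, Prdx2 had 433 with PCN and 519 with DMSO, which placed it at 1.2005-fold lower, just past the threshold. Prdx1, a known NRF2 target, had 3598 with PCN and 3434 with DMSO, a difference of 0.067. Prdx3, the mitochondrial one, had 3062 with PCN and 2938 with DMSO, and Prdx4, of the secretory pathway, had 703 with PCN and 721 with DMSO. The 4 measured peroxiredoxins therefore split evenly, and only Prdx2 differed by more than the SD of the control probe sets. At -0.26 it was still within the range of those probe sets, whose lowest difference was -0.33. Sod1, the cytosolic copper-zinc superoxide dismutase, had 2764 with PCN and 2468 with DMSO, 1.12-fold higher. Sod2, the mitochondrial manganese enzyme, had 1357 with PCN and 1438 with DMSO, a difference of -0.084 in the opposite direction.

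**Figure D2:**
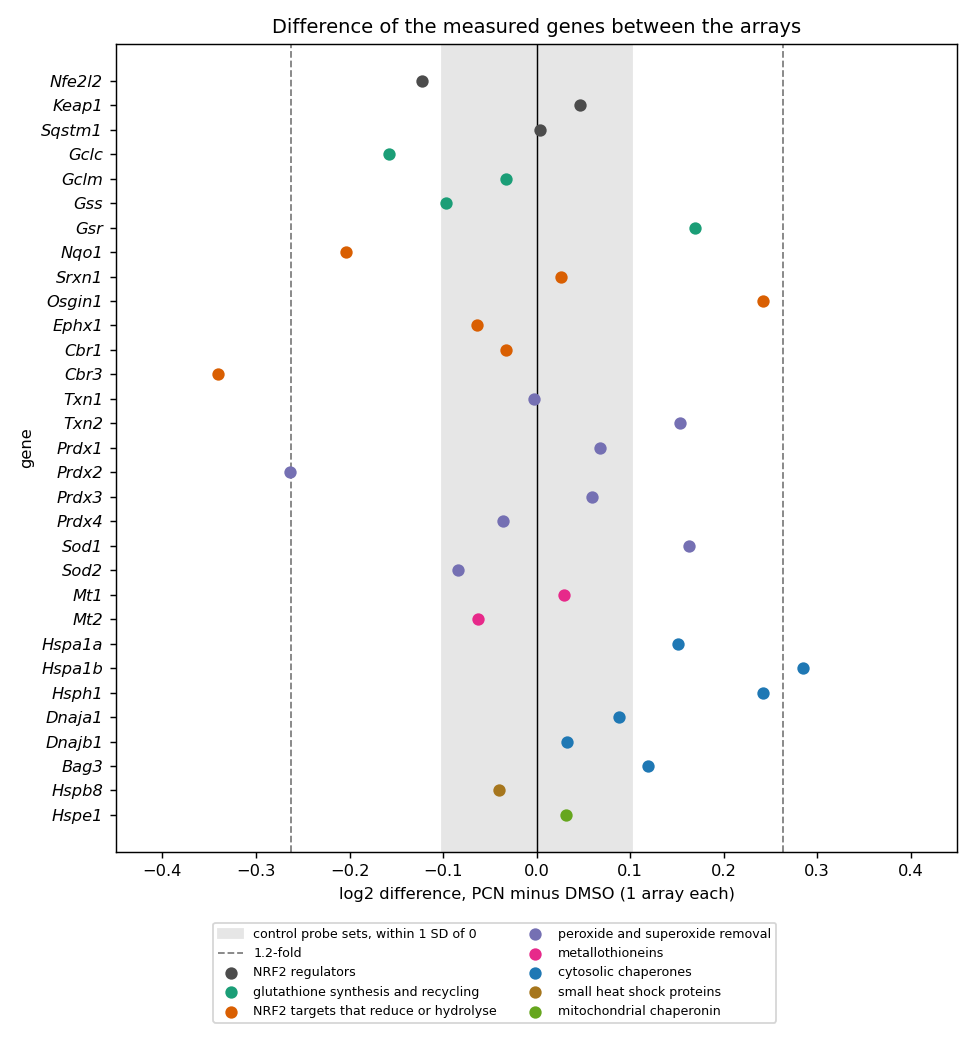
Log2 difference, PCN minus DMSO, of each of the 31 genes, coloured by role; the grey band is 1 SD of the control probe sets around 0 (0.10) and the dashed lines mark 1.2-fold. Of the 31 points 18 lie in the band, and Cbr3, Prdx2 and Hspa1b reach the dashed lines.

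The metallothioneins, small cysteine-rich proteins that bind zinc and copper and also scavenge oxidants, barely differed. Mt1 had 18399.7 with PCN and 18031 with DMSO, a difference of 0.029. Mt2 had 12791 with PCN and 13361 with DMSO, a difference of -0.063. Both differences were under the control SD, and that of Mt1 turned negative after median centring.

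The promoters of the metallothionein pair, which lie next to each other, are shown for letters that match the metal response element, the site bound by MTF1. Capitals mark matches to the core searched as TGCACNC or TGCGCNC on both strands, 4 in Mt2 (chr8:94172368-94172667, plus strand) and 3 in Mt1 (chr8:94178839-94179138, plus strand). The Mt2 matches begin at -223, -128, -50 and 5 from the transcript start, and the Mt1 matches at -23, 3 and 21. Sites outside the windows were not searched, and binding of MTF1 was not measured. The core occurred in 25.6% of the 27025 promoter windows and in 7 of the 29 windows here. In Gclm, 1 of its 3 matches to this core overlapped the antioxidant response element core.
Mt2: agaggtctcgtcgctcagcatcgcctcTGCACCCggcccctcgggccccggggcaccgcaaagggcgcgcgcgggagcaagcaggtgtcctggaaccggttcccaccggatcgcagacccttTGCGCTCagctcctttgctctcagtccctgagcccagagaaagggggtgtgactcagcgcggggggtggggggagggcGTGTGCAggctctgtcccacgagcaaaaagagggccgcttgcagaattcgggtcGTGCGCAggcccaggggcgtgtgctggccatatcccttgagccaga
Mt1: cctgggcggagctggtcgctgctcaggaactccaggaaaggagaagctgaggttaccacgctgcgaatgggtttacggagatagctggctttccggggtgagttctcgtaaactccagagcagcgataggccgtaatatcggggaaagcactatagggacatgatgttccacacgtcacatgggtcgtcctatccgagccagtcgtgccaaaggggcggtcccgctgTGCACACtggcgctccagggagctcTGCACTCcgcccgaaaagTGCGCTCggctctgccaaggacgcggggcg

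**Figure D3:**
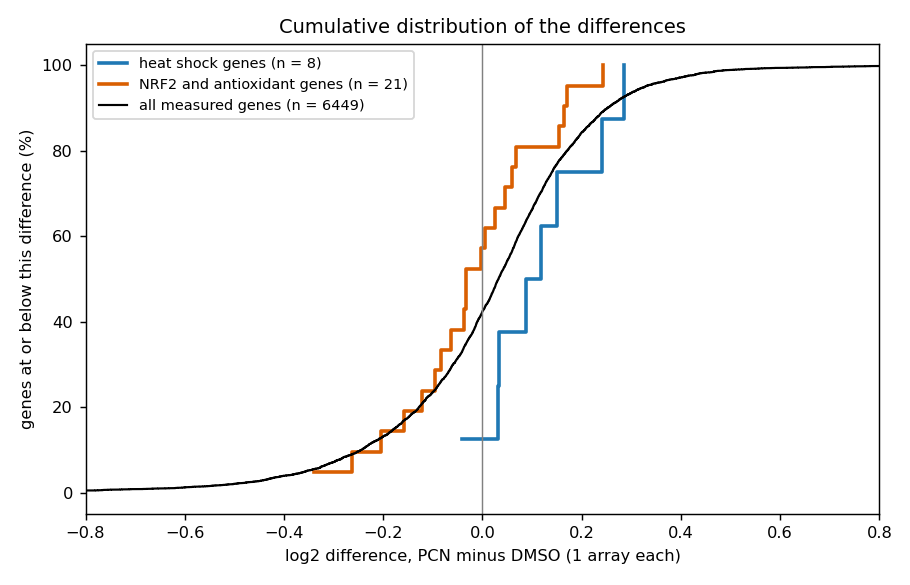
Cumulative share of genes (vertical axis, percent) by log2 difference, PCN minus DMSO (horizontal axis), for the 8 heat shock genes, the 21 NRF2 and antioxidant genes and all 6449 measured genes. The heat shock curve lies to the right, with a median of 0.10, the NRF2 and antioxidant curve has a median of -0.033, and all measured genes have a median of 0.032.

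The heat shock genes leaned to the higher side with PCN, by small amounts. All 6 measured cytosolic chaperone genes were higher, where 57.6% of all measured genes were. Their differences ran from 0.033 to 0.28 with a median of 0.13, and only Dnajb1 turned negative in any setting, under loess. Hspa1b, an inducible HSP70 chaperone, had 257 with PCN and 211 with DMSO, 1.22-fold higher and ranked 985 by size among measured genes. Its near copy Hspa1a had 36.8 with PCN and 33.1 with DMSO, 1.11-fold higher, at intensities so near the floor that it was not measured with a floor of 6 on the log2 scale. How far each of these probe sets also reads the other gene is not known from the intensities, so they are not separate observations. Hsph1, which resets HSP70 proteins by exchanging their nucleotide, had 607 with PCN and 513 with DMSO, 1.18-fold higher.

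The co-chaperones of HSP70 differed less. Dnaja1, a J-domain protein that delivers substrates to HSP70, had 2118 with PCN and 1993 with DMSO, a difference of 0.088. Dnajb1, the J-domain partner most tightly tied to the heat shock response, had 591 with PCN and 578 with DMSO, a difference of 0.033. Bag3, which links HSP70 to autophagy, had 378 with PCN and 349 with DMSO, a difference of 0.12. Hspb8, the small heat shock protein that works with BAG3, had 1129 with PCN and 1162 with DMSO, a difference of -0.041 in the other direction. Hspe1, the mitochondrial co-chaperonin, had 779.8 with PCN and 763 with DMSO, and its 0.031 turned negative under each of the 3 scalings. Over the 8 heat shock genes 7 were higher and 1 lower, or 5 and 3 after loess, while over the 21 NRF2 and antioxidant genes 9 were higher and 12 lower, or 7 and 14 under each of the 3 scalings. With 1 array per group the difference between these lists was not tested.

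The promoters of the 3 heat shock genes with the largest differences are shown for their heat shock elements. Capitals mark matches to the same pair of units, GAANNTTC or TTCNNGAA, which occurred in 15.1% of the 27025 windows and in 10 of the 29 windows here. Hspa1b (chr17:34959189-34959488, minus strand) and Hspa1a (chr17:34972107-34972406, minus strand) had the same base at 296 of 300 positions and 1 match each, at -104 from the start. Hsph1 (chr5:149636287-149636586, minus strand) had 3 matches, of which the last 2 overlap and form an element of 3 units, GAANNTTCNNGAA or TTCNNGAANNTTC. This longer element occurred in 0.53% of the windows, and among the measured genes in Hsph1 and Hspe1.
Hspa1b: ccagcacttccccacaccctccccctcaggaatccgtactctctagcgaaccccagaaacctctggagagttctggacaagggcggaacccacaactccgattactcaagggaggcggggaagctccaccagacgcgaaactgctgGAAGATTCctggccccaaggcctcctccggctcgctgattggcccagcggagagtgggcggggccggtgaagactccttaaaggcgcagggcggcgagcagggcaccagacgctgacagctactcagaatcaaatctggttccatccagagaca
Hspa1a: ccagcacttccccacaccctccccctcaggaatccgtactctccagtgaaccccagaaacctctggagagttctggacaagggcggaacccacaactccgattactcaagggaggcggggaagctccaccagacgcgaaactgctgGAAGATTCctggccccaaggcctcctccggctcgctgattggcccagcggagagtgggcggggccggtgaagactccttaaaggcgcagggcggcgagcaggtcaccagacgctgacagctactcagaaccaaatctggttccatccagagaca
Hsph1: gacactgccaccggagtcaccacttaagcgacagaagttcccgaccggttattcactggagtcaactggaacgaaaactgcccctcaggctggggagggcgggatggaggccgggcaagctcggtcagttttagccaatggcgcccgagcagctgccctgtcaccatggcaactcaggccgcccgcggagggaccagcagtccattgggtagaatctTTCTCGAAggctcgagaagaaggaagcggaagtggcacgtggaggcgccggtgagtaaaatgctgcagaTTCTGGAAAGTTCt

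Among the cytosolic chaperone genes, Dnaja1 and Bag3 also held a pair of units, and Dnajb1 held none in its window. Outside the heat shock genes, Cbr3 held 2 pairs, and Prdx3 and Sod1 held 1 each. Hspe1 held 3 overlapping pairs. Whether these matches bear on the differences between PCN and DMSO was not tested.

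**Figure D4:**
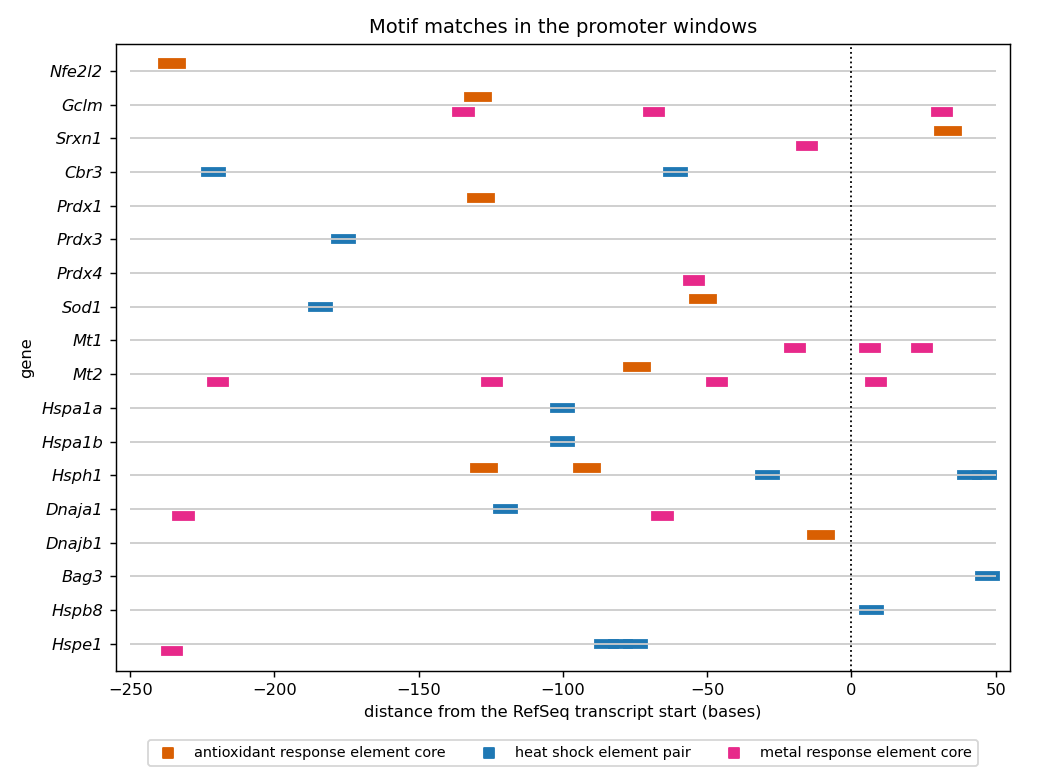
Position of motif matches, in bases from the RefSeq transcript start, in the promoter windows of the measured genes that held any; colours mark the antioxidant response element core, the heat shock element pair and the metal response element core. Metal response element cores number 4 in Mt2 and 3 each in Mt1 and Gclm, and heat shock element pairs appear in Hspa1a, Hspa1b, Hsph1 and Hspe1 but also in Cbr3, Prdx3 and Sod1.

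Other genes of the same pathways, 98 of them measured, also differed little for the most part, with an SD of 0.19, and 13 of them (13.3%) were at least 1.2-fold apart, against 18.0% of all measured genes. Of 22 further NRF2 pathway genes 14 were higher and 8 lower. Their median was 0.037, and 2 were at least 1.2-fold higher and 2 at least 1.2-fold lower, against 9.06% and 8.95% of all measured genes. Hmox1, heme oxygenase 1, a gene that responds strongly to oxidants, had 1917 with PCN and 1911 with DMSO, a difference of 0.0044 that turned negative under each of the 3 scalings. Txnrd1, thioredoxin reductase 1, had 650.4 with PCN and 682 with DMSO, and Slc7a11, the cystine transporter, had 36.5 with PCN and 37.4 with DMSO, near the floor. The highest of the list were Abcc2, an efflux pump of the bile canaliculus that is also known as a PXR target, with 1187 with PCN and 897 with DMSO, and Akr1b8, an aldo-keto reductase, with 197 with PCN and 149 with DMSO, both 1.32-fold higher. Abcc4, another efflux pump, was 1.17-fold higher. The lowest were Rbx1, a subunit of the ligase that KEAP1 recruits, at 1.23-fold lower, Mafg, a partner of NRF2 on DNA, at 1.22-fold lower, and Aox1, aldehyde oxidase, at 1.19-fold lower.

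Of 24 further glutathione, thioredoxin and peroxide genes 9 were higher and 15 lower. Their median was -0.057, and 0 were at least 1.2-fold higher and 5 at least 1.2-fold lower, against the same 9.06% and 8.95%. Gpx3, the secreted glutathione peroxidase, had 52.9 with PCN and 87.7 with DMSO, 1.66-fold lower, the largest difference of any gene in these lists. It lies near the floor, and its difference of -0.73 shrank to -0.45 with a floor of 6 on the log2 scale, about that of Fkbp5 among the chaperones. Oplah, which recycles oxoproline to glutamate, was 1.28-fold lower, and Msra, which repairs oxidised methionine, was 1.27-fold lower. On the higher side were the glutaredoxins Glrx3 and Glrx, at 1.17-fold and 1.16-fold, and Gsto1, an omega class glutathione transferase, at 1.12-fold. Cat, the catalase gene, had 3430.4 with PCN and 3502 with DMSO. The 4 measured genes of metal response, none of them 1.2-fold apart, ran from -0.037 for the zinc exporter Slc30a1 to 0.075 for the metal importer Slc39a14, with the copper chaperone Atox1 at -0.019.

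Further chaperone genes leaned higher, as the listed ones did. Of 30 measured cytosolic chaperone and heat shock genes 22 were higher and 8 lower, or 21 and 9 under each of the 3 scalings, with a median of 0.11. The share higher over all measured genes was 57.6%. Cacybp, which binds HSP90 and calcyclin, had 743 with PCN and 581 with DMSO, 1.28-fold higher. Hspa4, a relative of Hsph1, and Dnajc2, a J-domain protein of the ribosome, were 1.202-fold and 1.203-fold higher. Fkbp5, an HSP90 co-chaperone induced by glucocorticoids, had 212 with PCN and 289 with DMSO, 1.36-fold lower, the lowest of its list. Hspb6 and Dnajb4 were 1.12-fold and 1.11-fold lower.

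All 7 measured subunit genes of the TRiC chaperonin, the ring that folds actin and tubulin, were higher, in every setting, by 0.065 to 0.20 with a median of 0.13. Cct7 had 3028 with PCN and 2628 with DMSO, 1.15-fold higher, and Cct5 and Cct4 were 1.15-fold and 1.097-fold higher. None of the 7 reached 1.2-fold, and 57.6% of all measured genes were higher by any amount. Of 11 mitochondrial chaperones and proteases 8 were higher and 3 lower, or 6 and 5 after loess, and their median was 0.047. The 8 are 72.7%, against the same 57.6%, and the 6 after loess are 54.5%, against 50.6% of all measured genes. Lonp1, a protease of the mitochondrial matrix, was 1.196-fold higher, and Clpp and Dnaja3 were 1.09-fold and 1.08-fold higher. Clpx, the unfoldase partner of Clpp, was 1.18-fold lower, and Grpel2 and Trap1 were 1.09-fold and 1.08-fold lower. Hspa9, the mitochondrial HSP70, had 1662 with PCN and 1605 with DMSO, a difference of 0.05.

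**Figure D5:**
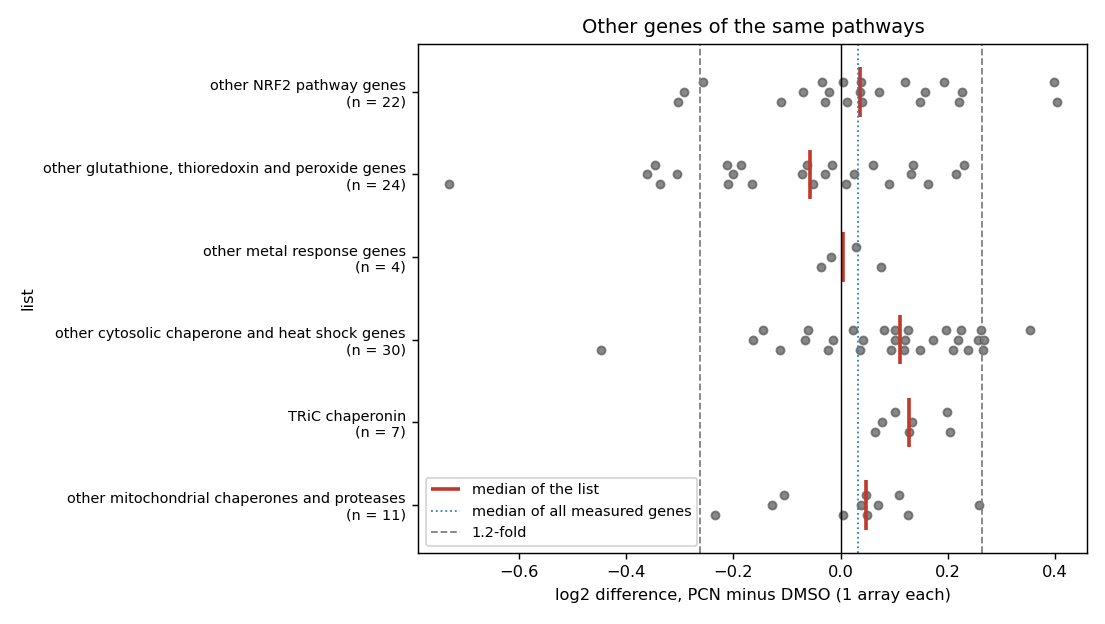
Log2 difference, PCN minus DMSO, of each measured gene (points) in 6 further lists of the same pathways; red bars are list medians, the dotted line is the median of all measured genes (0.032) and dashed lines mark 1.2-fold. The medians of the cytosolic chaperone list (0.11) and the TRiC list (0.13) lie right of the dotted line, and that of the glutathione, thioredoxin and peroxide list (-0.057) lies left of it, with Gpx3 furthest left.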

How the data were processed

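Gene expression was measured on 2 Affymetrix arrays, 1 for PCN and 1 for DMSO. Biotin-labelled cRNA came from 5 µg of RNA pooled from 3 samples, per the labels' protocols. The deposited values are linear intensities, made with GCRMA 2.2.0 per the submitters' processing notes. Neither a build nor a probe set definition is given in the sources used here. Each of the 15644 named genes had 1 probe set, numbered by its Entrez gene, and all 31 measured members matched RefSeq (GRCm38.p6) by number and symbol.

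Deposited intensities were turned into log2 values in pandas 2.3.3 and numpy 2.4.6, under Python 3.11.15. A value under 5 on the log2 scale in 1 array was raised to that floor, which is a choice, not a measured background. Members and lists were chosen with earlier results of these data known. All members are described, as are the up to 3 largest differences each way in each further list, among genes that neither array put under the floor, and Hmox1, Txnrd1, Slc7a11, Hspa9 and Cat. The calculation was tested on simulated data with changes of 1.5-fold in genes well above the floor. That test does not show how it treats differences near 1.2-fold or dim genes. Alternatives were floors of 4 and 6, low values as deposited, quantile normalization, median centring, loess (statsmodels 0.14.6, fraction 0.3), and thresholds of 1.1-fold and 1.5-fold. Motifs were searched in the first RefSeq promoter window listed per gene. Depth has no meaning here. The number of arrays limits the precision, and treatment and any batch cannot be told apart.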

Additional observations from a re-analysis of the deposited data

How the results depend on the processing

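With 1 array per group no replicate could be left out, and no p-value exists for any difference. No paired analysis was possible because a group holds a single array. The count of genes at least 1.2-fold apart, 3 of 31, became 11 at 1.1-fold (7 higher, 4 lower) and 0 at 1.5-fold (0 higher, 0 lower), by the change of threshold itself. Among genes with a mean log2 level of at least 8, an alternative chosen after seeing the data, it was 1, with 0 higher and 1 lower. Quantile normalization, median centring and loess each left 0 genes at least 1.2-fold higher in place of 1. Over all measured genes these scalings turned 584 higher and 577 lower at 1.2-fold into 513 and 625, 435 and 709, and 439 and 693, in that order, while the median of all measured genes is 0.032 before centring. Of 185 differences of the 31 listed genes under the alternative floors and scalings, none moved by more than the SD of the control probe sets. The largest move was 0.059. All 31 were above the floor in both arrays, so other floors or low values as deposited could not move them, except that a floor of 6 removed Hspa1a. Median centring shifts every gene by the same 0.032. Most of these settings could therefore not produce a larger move. Among the further genes of these pathways, Gpx3 moved by more than that SD, to -0.45 with a floor of 6. The sign changed for 5 of the 31 genes, Sqstm1, Srxn1, Hspe1, Mt1 and Dnajb1, all under 0.05 in size, and for 5 of 15 list medians, all under 0.05 as well. None of the 90 list medians moved by more than that SD. The differences of dim genes such as Hspa1a, Nqo1 and Keap1 are limited by signal close to background.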

Other observations

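Within the further glutathione, thioredoxin and peroxide genes, of which 9 were higher and 15 lower, 2 enzyme families each had a single direction; both were picked out after their values were seen. The methionine sulfoxide reductases, which repair oxidised methionine in proteins, were lower with PCN in all 3 genes that the list held. Genes of the family outside the list were not looked up. Msra had 629 with PCN and 799 with DMSO, Msrb1, a selenoprotein, had 1748 with PCN and 2159 with DMSO, and Msrb2, of mitochondria, had 79.98 with PCN and 89.7 with DMSO. The differences were -0.35, -0.30 and -0.16. The glutaredoxins, which use glutathione to reduce protein disulfides or to carry iron-sulfur clusters, were higher in all 4 measured genes, Glrx, Glrx2, Glrx3 and Glrx5, with differences of 0.22, 0.14, 0.23 and 0.06. Over all measured genes 57.6% were higher by any amount. The signs of all 7 genes were the same under each of the 3 scalings, while the alternative floors lie below their values and could not change them. With 1 array per group neither family was tested.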
